A study of Mus musculus with 6 samples.

Results

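Small nucleolar RNA (snoRNA) and small Cajal body RNA (scaRNA) genes were taken as all rows of the deposited count table whose biotype is snoRNA or scaRNA. There were 1558 of them among 55416 annotated genes. The symbol prefix, read without regard to case, put 59 in the H/ACA class (Snora), 289 in the C/D class (Snord), 8 in the Scarna class and 1202 in no named class. Of the 1202, 976 carry a predicted-gene symbol beginning with Gm and 211 carry no symbol. The counts come from the hippocampus of mice that received ethynyluridine (EU) at 50 mg/kg under the skin, or an equal volume of phosphate-buffered saline (PBS), once a day from postnatal day 3 to 5, with tissue taken on postnatal day 36. EU is a uridine analogue that cells build into RNA as they make it, and its alkyne group can be joined to biotin by click chemistry. RNA of both groups went through this reaction, was pulled down on streptavidin and was made into total RNA libraries, so the PBS libraries measure background binding. There were 3 libraries per group. The labels give no strain and do not say whether each library is a different animal; the p-values therefore cover the spread among these libraries only, part of which may be technical.

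snoRNAs are nuclear guide RNAs that pair with ribosomal RNA and direct its modification. Box C/D snoRNAs bind fibrillarin, which methylates the ribose, and box H/ACA snoRNAs bind dyskerin, which turns uridine into pseudouridine. scaRNAs carry boxes of either kind, or of both, reside in Cajal bodies and guide modification of spliceosomal snRNAs. In mammals most snoRNAs are cut from introns of host genes and held in stable protein complexes, while a few, such as U3, U8 and U13, are transcribed from genes of their own. The comparison asks whether such RNAs made in the first days of life were recovered with EU above the PBS background a month later.

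The sequences of the genes on which the results turn are shown here, because most of them have no class in their symbol and the end boxes show which class they resemble. They are from GENCODE M21 transcripts (build GRCm38), matched by gene identifier, which held 1099 of the 1558 genes and 48 of the 51 genes with enough counts to test. Each of the 1099 had the length of its interval in the table, which is in GRCm39. All are written 5′ to 3′ as DNA, on the strand of the RNA. The first sequences end in ACA followed by 3 bases, the box of H/ACA RNAs, and that box is in capitals. Snora73b and Gm26448 were 87.8% identical over the longer of the pair, and Gm25788 and Gm22154 96.95%.
Snora73b: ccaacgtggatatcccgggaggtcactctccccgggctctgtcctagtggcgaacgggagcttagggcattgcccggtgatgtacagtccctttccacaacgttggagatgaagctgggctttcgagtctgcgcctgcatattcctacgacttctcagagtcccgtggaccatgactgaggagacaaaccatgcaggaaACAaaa
Gm26448: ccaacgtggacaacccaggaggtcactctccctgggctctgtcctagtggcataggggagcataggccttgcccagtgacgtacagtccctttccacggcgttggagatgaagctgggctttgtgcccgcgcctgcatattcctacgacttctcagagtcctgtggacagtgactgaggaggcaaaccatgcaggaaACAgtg
Gm26397: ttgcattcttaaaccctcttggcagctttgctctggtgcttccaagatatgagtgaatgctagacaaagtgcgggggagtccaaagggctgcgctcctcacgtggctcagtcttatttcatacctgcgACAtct
Gm25788: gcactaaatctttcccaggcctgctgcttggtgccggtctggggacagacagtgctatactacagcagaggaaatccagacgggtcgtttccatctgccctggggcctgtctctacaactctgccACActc
Gm22154: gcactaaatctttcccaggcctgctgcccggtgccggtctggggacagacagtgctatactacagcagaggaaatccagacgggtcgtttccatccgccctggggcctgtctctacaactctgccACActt
Gm22442: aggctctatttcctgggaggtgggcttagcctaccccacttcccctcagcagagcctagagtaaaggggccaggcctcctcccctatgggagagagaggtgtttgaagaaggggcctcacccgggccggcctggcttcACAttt

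The next sequences carry the C box TGATGA within the first 20 bases and the D box CTGA within the last 20, both in capitals. Gm25395 and Scarna6 are neighbours inside Atg16l1 and were 67.7% identical. They share their first bases through the C box and their last bases from the D box on.
Gm25395: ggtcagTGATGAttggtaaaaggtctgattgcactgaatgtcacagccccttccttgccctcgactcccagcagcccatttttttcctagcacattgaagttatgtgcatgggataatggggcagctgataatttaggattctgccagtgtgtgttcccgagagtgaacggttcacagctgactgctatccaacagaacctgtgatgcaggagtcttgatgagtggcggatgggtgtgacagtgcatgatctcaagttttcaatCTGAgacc
Scarna6: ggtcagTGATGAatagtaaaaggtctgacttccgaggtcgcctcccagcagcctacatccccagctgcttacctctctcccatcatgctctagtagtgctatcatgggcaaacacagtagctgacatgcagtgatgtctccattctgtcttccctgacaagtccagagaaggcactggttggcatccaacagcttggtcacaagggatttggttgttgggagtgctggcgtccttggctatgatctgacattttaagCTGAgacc
Snord17: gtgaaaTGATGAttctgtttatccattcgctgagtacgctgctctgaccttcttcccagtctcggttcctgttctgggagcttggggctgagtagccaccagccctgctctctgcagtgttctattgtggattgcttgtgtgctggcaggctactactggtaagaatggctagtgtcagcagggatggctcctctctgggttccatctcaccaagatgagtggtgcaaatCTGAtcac
Snord15a: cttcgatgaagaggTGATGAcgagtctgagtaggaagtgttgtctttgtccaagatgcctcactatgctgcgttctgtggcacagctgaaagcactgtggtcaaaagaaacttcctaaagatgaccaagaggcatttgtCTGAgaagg

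Over all 1099 sequences, the end boxes followed the prefixes. Of 37 Snora sequences, 30 had the ACA end and 0 the C and D boxes, and of 74 Snord sequences 45 had C and D boxes and 0 the ACA end. Of 6 Scarna sequences, 4 had C and D boxes. Among the 982 sequences with neither prefix, 199 had the ACA end and 61 the C and D boxes, with 4 holding both. Other small RNA genes (snRNA, miRNA, misc_RNA and rRNA of 60 to 420 bases) held the ACA end in 30 of 1876 sequences (1.60%) and the C and D boxes in 1. Only the RNA strand was searched, and a sequence without a match may still hold a variant box.

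Few of these genes were seen at all. Of the 1558, 344 had at least 1 count in the 6 libraries together, 151 a summed count of 10 or more, and 51 passed the filter on low counts (9 H/ACA, 5 C/D, 3 Scarna and 34 without a class). The 51 tested genes held 96.2% of the 80311 counts on these rows, and 7 genes (Snora73b, Gm22442, Scarna2, Scarna13, Snord17, Gm25395 and Gm22009) held 72.8%. Within the classes, Snora73b held 87.3% of H/ACA counts, Snord17 held 82.9% of C/D counts, and Scarna2 with Scarna13 held 90.4% of Scarna counts. Genes of 200 bases or more were 39 of the 1558 and took 64.5% of the counts, and 9 of them were tested. Genes under 100 bases were 462 and took 2.47%, with 5 tested (Snord104, Snord55, Gm24339, Gm24564 and Gm24966). The part that fragment size in library making has in this was not tested.

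The number of these genes detected in EU and PBS libraries depended on the count asked for. At least 1 count was found for 211, 173 and 212 genes in EU replicates 1 to 3, and for 162, 81 and 184 in PBS replicates 1 to 3. As counted, the groups overlap, since PBS replicate 3 exceeded EU replicate 2. Drawn down to 39886723 counts, the smallest library total, the expected numbers were 196, 173 and 210 in EU and 159, 80.5 and 170 in PBS, so that every EU library lay above every PBS library, EU replicate 2 and PBS replicate 3 by little. At least 3 counts were found for 119, 105 and 129 genes in EU and for 128, 73 and 130 in PBS, and the groups overlap. At least 10 counts were found for 50, 46 and 44 genes in EU and for 65, 58 and 52 in PBS, so every PBS library held more such genes than every EU library. The numbers at 3 and 10 counts were not matched for depth, and PBS replicate 3 was the largest library. Over all genes, as counted, at least 1 count was found for 26372, 25280 and 25849 in EU and for 23816, 19243 and 25306 in PBS. There too PBS replicate 3 exceeded EU replicate 2 and the other EU libraries lay highest. The order at 1 count was thus not particular to snoRNA and scaRNA genes. PBS replicate 2 stood apart here as over all genes. Its mean correlation with the other libraries was 0.938, against 0.970 to 0.977 for the rest. Of the 51 tested genes, 23 had their highest CPM (counts relative to the library total, after TMM scaling) in PBS replicate 2 and 6 had no count there.

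**Figure D1:**
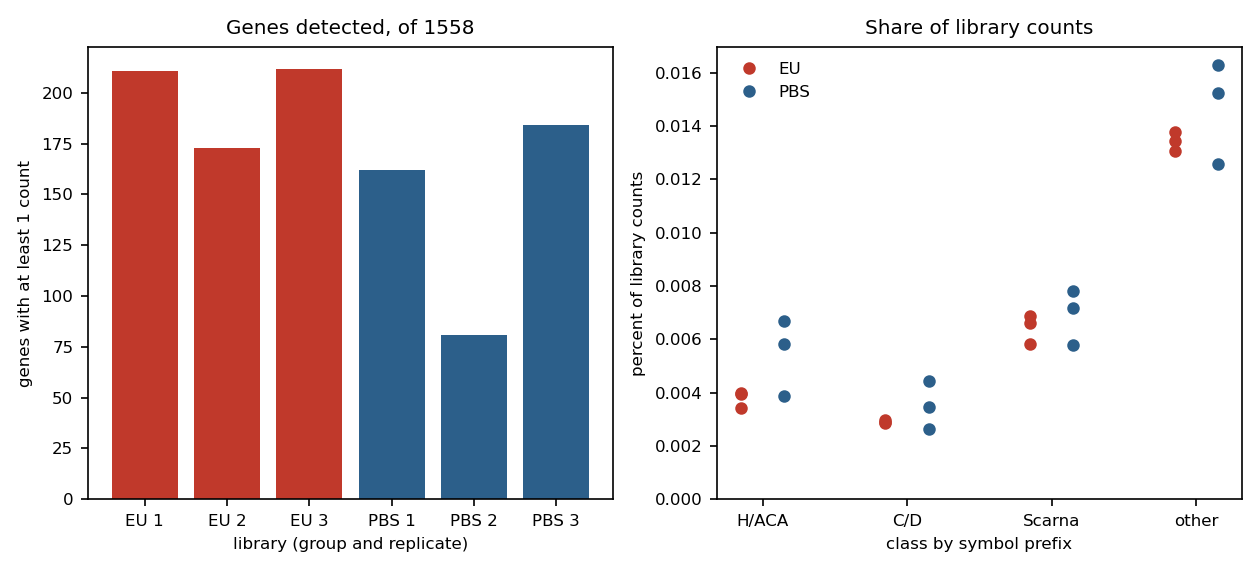
Left, the number of snoRNA and scaRNA genes with at least 1 count in each library (bars, EU red, PBS blue). Right, the percent of library counts on each class, 1 point per library. PBS replicate 2 detected 81 genes where the other 5 libraries detected 162 to 212, and the class shares of EU and PBS overlap in every class.

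All snoRNA and scaRNA genes together held a mean share of library counts of 0.0266% (SD 0.00068, n = 3) with EU and 0.0306% (SD 0.00381, n = 3) with PBS. By library the shares were 0.0267%, 0.0259% and 0.0272% in EU and 0.0323%, 0.0332% and 0.0262% in PBS. PBS replicates 1 and 2 were above every EU library and PBS replicate 3 lay inside the EU range. The H/ACA class held 0.00379% (SD 0.000306, n = 3) with EU and 0.00546% (SD 0.00146, n = 3) with PBS, and the ratio of means was 0.695. The C/D class had a ratio of 0.830, the Scarna class 0.929 and the genes without a class 0.914. In each class the groups overlapped, and no test was made of these sums.

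No snoRNA or scaRNA gene passed the test of EU against PBS. edgeR's quasi-likelihood test with TMM scaling called 0 of the 51 at an adjusted p of 0.05, where it called 0.0% of the 18511 genes tested. The smallest adjusted p among the 51 was 0.198, against 0.0723 among all genes. At an unadjusted p under 0.05 there were 11 genes with lower values in EU and 1 with a higher value, where 4.05% and 3.84% of all tested genes had such a p in those directions (7.88% in either). The EU and PBS values lay fully apart for 9 genes with EU below PBS and for 4 with EU above, where the share over all tested genes was 7.18% and 8.52%. DESeq2 called 4 genes, Snora73b, Gm26448 and Gm26397 as lower and Gm25395 as higher, where it called 0.854% of all genes as lower and 0.702% as higher (1.56% in all). It gave an adjusted p for 12 of the 51 and left out the rest for low counts. The shares over all genes are of all 18511, those without an adjusted p included, and the number of those is not given here. edgeR without the filter on low counts tested 344 snoRNA and scaRNA genes and called the same 4, 3 as lower and 1 as higher. There it called 0.283% of 31108 genes as lower and 0.514% as higher. limma voom (0.0648% of genes called, 0.0216% higher and 0.0432% lower), the replicate number as a block (0.0972%, 0.0594% and 0.0378%), the fit without PBS replicate 2 (0.103%, 0.0721% and 0.0309%) and that without EU replicate 1 (0.00525%, higher) called 0 snoRNA or scaRNA genes. A gene high in PBS alone can pass the filter through those libraries, so the counts over the 51 describe them and are no support for a shift of snoRNAs. Because scaling sets the libraries to one total and the spike-in rows held 0 counts, a higher yield of all RNAs alike would not show.

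Of the 51 tested genes, 32 had lower values in EU and 19 higher ones. Their median log2 fold was -0.30, beside 0.01 over all tested genes. The H/ACA class had a median of -0.60 over 9 genes, the C/D class -0.30 over 5, the Scarna class -0.14 over 3 and the genes without a class -0.36 over 34. Without PBS replicate 2 the median of the 51 was -0.16 and that of the H/ACA class 0.02. Without PBS replicate 3 they were -0.58 and -0.78. Without the filter on low counts, the 344 detected genes had a median of 0.28, with 147 negative, and the 51 among them -0.29. The direction of the median over snoRNA and scaRNA genes thus depended on the filter. Other short RNA classes had negative medians too, -0.51 over 29 snRNA genes, -0.48 over 20 misc_RNA genes and -0.34 over 30 miRNA genes. Without the filter on low counts these medians were positive as well, at 0.21 over 347, 0.40 over 119 and 1.225 over 628 genes. Without PBS replicate 2 and with the filter run anew, the medians were -0.26 over 35 snRNA, -0.23 over 25 misc_RNA and -0.10 over 40 miRNA genes. The miRNA median was also 0.03 over 40 genes without EU replicate 1 and 0.00073 over 35 genes without PBS replicate 1. With limma voom it was -0.05 over 30 genes. Its direction did not hold across these fits, whose gene sets differ in part. Summed markers of hippocampal principal neurons, among them Prox1, C1ql2, Fibcd1 and Wfs1, lay at 1324 to 1562 CPM in EU and 1607 to 1702 in PBS, with 8 of 8 markers detected in all libraries. Their part in these values was not tested, and in bulk tissue fewer cells of a type cannot be told from less RNA per cell. Summed markers of choroid plexus ranged from 738 to 3653 CPM in EU and from 1673 to 5268 in PBS, and those of neurons, oligodendrocytes, microglia, endothelium and blood overlapped too. Summed astrocyte markers lay at 1461 to 1495 CPM in EU and 1427 to 1459 in PBS, apart by little.

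**Figure D2:**
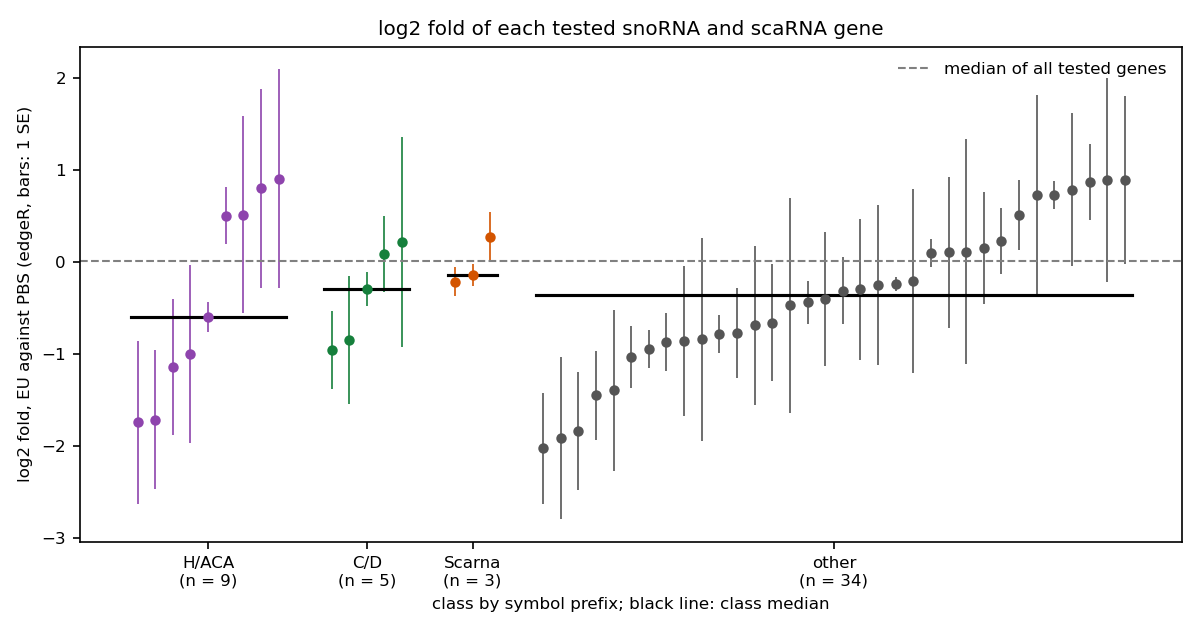
Each point is the log2 fold of EU against PBS of 1 tested gene with its standard error, ordered within class; the black line is the class median and the dashed line the median of all tested genes. The class medians lie between -0.60 and -0.14, and each class holds points on both sides of 0.

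Among H/ACA RNAs, Snora73b carried most counts. Snora73 RNAs, also known as U17, act in cleavage of the precursor of 18S ribosomal RNA rather than in its pseudouridylation. Snora73b (ENSMUSG00000065353, chr4:132079633-132079837 in GRCm39, minus strand, inside Rcc1) stood at 28.7, 34.7 and 33.15 CPM in the EU libraries and at 52.7, 58.2 and 35.1 in the PBS libraries. All EU libraries were below all PBS libraries, by little in the case of PBS replicate 3. The log2 fold was -0.60 (SE 0.165, edgeR adjusted p = 0.339, DESeq2 adjusted p = 0.0194). Gm26448 (ENSMUSG00000064380, chr9:119958417-119958619, plus strand, inside the ribosomal protein gene Rpsa), whose sequence resembles Snora73b above, stood at 3.53, 3.27 and 4.51 CPM in EU and at 8.22, 7.69 and 5.88 in PBS. The groups were apart, and the log2 fold was -0.94 (SE 0.208, edgeR adjusted p = 0.221, DESeq2 adjusted p = 0.00977). Snora73a, 96.6% identical to Snora73b, held 13 counts in all, and reads that fit both copies cannot be assigned with certainty.

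The other named H/ACA RNAs had few counts and wide errors. Snora78 stood at 0.213, 0.748 and 0.428 CPM in EU and at 1.09, 2.97 and 0.503 in PBS, with log2 fold -1.71 (SE 0.754, edgeR adjusted p = 0.621). Its groups overlapped, and its enclosing gene Snhg9 had -1.12 (edgeR adjusted p = 0.770). Snora78 had -0.79 without PBS replicate 2. Snora23 was the H/ACA gene whose EU libraries all lay above the PBS libraries, at 2.72, 2.10 and 2.47 CPM against 1.72, 2.02 and 1.39 (log2 fold 0.51, SE 0.308). Snora21, Snora57 and Snora30 had log2 folds of -1.74, -1.14 and -0.997. Each had its highest value in PBS replicate 2 (1.49, 1.79 and 1.39 CPM), and without that library the folds were between -0.58 and 0.67. Snora15, Snora17 and Snora47 had 0.80, 0.91 and 0.52. Snora15 and Snora17 had no count in PBS replicate 2 and Snora47 had 1. Over these 6 genes the standard error was at least 0.739, so neither direction is distinguished.

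Several genes without a class that carry the ACA end had the same direction as Snora73b. Gm26397 (chr8:127671597-127671730, minus strand, inside Tomm20, which encodes a mitochondrial import receptor) stood at 7.04, 7.66 and 7.93 CPM in EU and at 10.2, 17.7 and 11.1 in PBS. The groups did not overlap, PBS replicate 2 was the highest, and the log2 fold was -0.78 (SE 0.208, edgeR adjusted p = 0.320, DESeq2 adjusted p = 0.0306). Without that library the log2 fold was -0.50. Gm22442 (chr11:69241344-69241487, minus strand, inside the chromatin remodeller gene Chd3), a scaRNA by biotype with the highest level per length of the 51, stood at 33.0, 36.95 and 34.8 CPM in EU and at 41.4, 42.45 and 39.3 in PBS. The libraries of each group lay close together and apart from the other group, and the log2 fold was -0.23 (SE 0.0769, edgeR adjusted p = 0.458). Gm22154 and Gm25788 lie side by side inside Pabpc4, a poly(A)-binding protein gene (chr4:123186945-123187075 and chr4:123185137-123185267, plus strand). Gm22154 had 0.233, 0.349 and 0.404 CPM in EU and 1.28, 1.997 and 0.763 in PBS (log2 fold -2.03, SE 0.608), and Gm25788 a log2 fold of -1.84 (SE 0.644). They are near copies, and whether they share reads is not known, so they may not be independent of each other. Without PBS replicate 2 the log2 fold of Gm25788 was -1.03.

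Gm25117 inside Nap1l1 had 1.77, 2.24 and 2.07 CPM in EU and 3.04, 6.41 and 3.00 in PBS (log2 fold -1.03, SE 0.340), and Gm22422 inside Trmt10c a log2 fold of -1.45 (SE 0.484). In both the groups were apart, and PBS replicate 2 held the highest value. Without it the folds were -0.58 and -0.84. Of the other ACA-ended genes, Gm23442 (-1.91), Gm26165 (-1.40), Gm25394 (-0.69), Gm26493 (-0.66), Gm22270 (-0.47), Gm25492 (-0.30), Gm22748 (-0.25) and Gm24233 (-0.20) had negative log2 folds and overlapping groups. Gm23442 had -1.04 and Gm26165 -0.30 without PBS replicate 2. Gm25848 (0.90), Gm25776 (0.23), Gm25107 (0.15) and Gm22767 (0.11) had positive ones. Gm25848 and Gm25776 were 89.6% identical. The EU values of Gm25848, 0.475 to 0.549 CPM, all lay above its PBS values of 0.426, 0.0232 and 0.382.

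**Figure D3:**
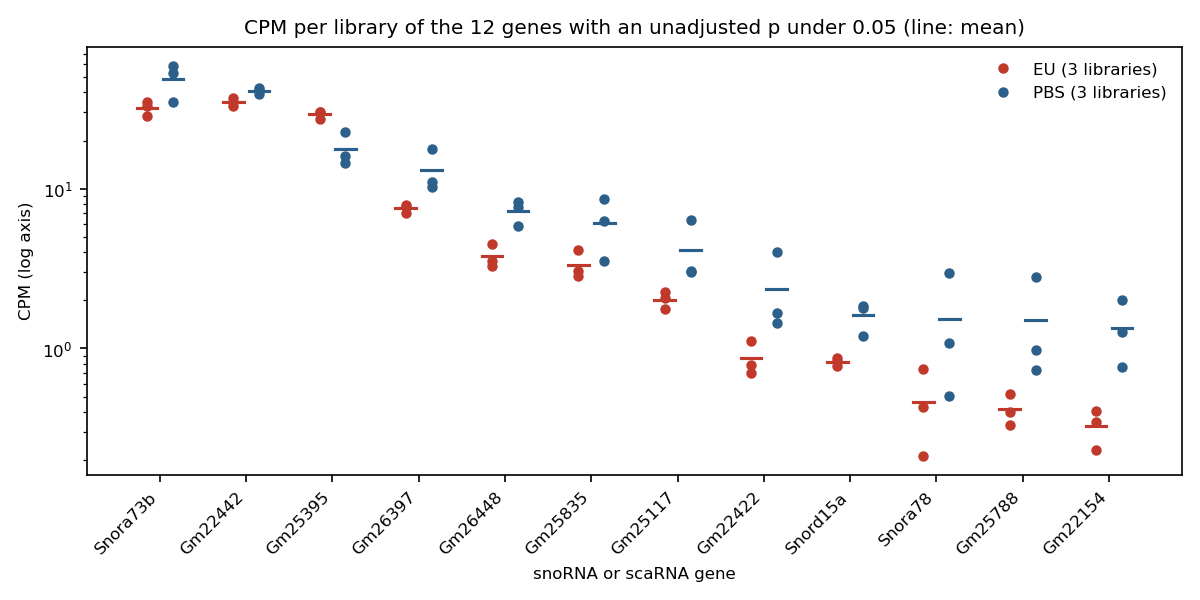
CPM of the 12 genes with an unadjusted p under 0.05, 1 point per library (EU red, PBS blue) on a log axis, with a line at the group mean. Gm25395 has EU above PBS, the other 11 have the EU mean below the PBS mean, and the groups overlap for Gm25835 and Snora78.

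C/D RNAs were led by Snord17, and the class showed no common direction. Snord17 (ENSMUSG00000077714, chr2:144107899-144108136, minus strand, inside the sorting nexin gene Snx5) stood at 24.35, 24.5 and 22.9 CPM in EU and at 27.4, 39.3 and 21.5 in PBS. The groups overlapped, and the PBS values spread more widely than the EU values. The log2 fold was -0.30 (SE 0.184, edgeR adjusted p = 0.759), and -0.03 without PBS replicate 2. Snord15a (chr7:99131992-99132139, minus strand, inside the ribosomal protein gene Rps3), a guide of ribosomal RNA methylation, stood at 0.873, 0.773 and 0.831 CPM in EU and at 1.85, 1.79 and 1.197 in PBS. Its groups were apart (log2 fold -0.96, SE 0.424, edgeR adjusted p = 0.624). Snord118, the U8 RNA, which acts in the processing of 28S and 5.8S ribosomal RNA and lies in no enclosing gene, had 0.175, 0.474 and 0.475 CPM against 0.639, 0.929 and 0.451 (log2 fold -0.84, SE 0.699). Snord104 and Snord55 had 0.09 and 0.22, with Snord55 at 0 counts in PBS replicate 2.

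Gm25835 inside the translation factor gene Eif4a1, a gene without a class that carries C and D boxes, had 3.07, 4.14 and 2.85 CPM in EU and 6.24, 8.66 and 3.52 in PBS (log2 fold -0.87, SE 0.315, edgeR adjusted p = 0.511, and -0.54 without PBS replicate 2). Its groups overlapped at PBS replicate 3. Gm24339 inside Cep295, also with C and D boxes, had the opposite pattern, at 1.65, 1.496 and 1.71 CPM in EU and 0.681, 0.975 and 0.989 in PBS, with the groups apart (log2 fold 0.87, SE 0.412, edgeR adjusted p = 0.669). Gm24564, inside the imprinted transcript Rian, had -0.86 (SE 0.815). Gm24966, with a D box alone and inside Snhg14, the long transcript of the Prader-Willi region, had 0.73 (SE 1.09). Rian and Snhg14 themselves had 0.18 and 0.25.

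The genes with scaRNA biotype had the only higher value with an unadjusted p under 0.05. Gm25395 (ENSMUSG00000087968, chr1:87704660-87704931, plus strand, inside the autophagy gene Atg16l1) stood at 30.2, 30.05 and 27.4 CPM in EU and at 22.5, 16.0 and 14.4 in PBS. Every EU library was above every PBS library, and the log2 fold was 0.73 (SE 0.155, edgeR adjusted p = 0.198, DESeq2 adjusted p = 0.0017). Its host Atg16l1 had a log2 fold of -0.06 (edgeR adjusted p = 0.880). Counts on Gm25395 were 0.965, 0.945 and 0.813 of those on Atg16l1 in the EU libraries and 0.670, 0.471 and 0.434 in the PBS libraries, with no overlap. Its neighbour Scarna6, the U88 RNA, lies at chr1:87712278-87712542 and had 7.14, 5.69 and 8.38 CPM in EU and 7.07, 7.04 and 3.54 in PBS. These groups overlapped (log2 fold 0.27, SE 0.272, edgeR adjusted p = 0.839), and the ratio of Gm25395 to Scarna6 counts did too, at 4.23, 5.29 and 3.27 in EU and 3.18, 2.27 and 4.06 in PBS.

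The other abundant scaRNAs had overlapping groups, except Gm22442 above. Scarna2 guides modification of U2 snRNA and is transcribed from its own gene (chr3:108461654-108462067, minus strand). It stood at 35.9, 31.3 and 29.2 CPM in EU and at 39.85, 30.0 and 36.3 in PBS, with log2 fold -0.14 (SE 0.119, edgeR adjusted p = 0.821). Scarna13, the U93 RNA, inside Snhg10, had 25.1, 20.8 and 27.6 CPM against 30.8, 21.9 and 32.4 (log2 fold -0.21, SE 0.156), and Gm22009 inside the importin gene Kpna4 had 0.10 (SE 0.150). Gm22767, Gm25492 and Gm23119, at a mean of 0.515, 0.272 and 0.337 CPM in EU, had log2 folds of 0.11, -0.30 and 0.90 with standard errors of at least 0.769. Over the 9 tested scaRNA biotype genes the median was 0.10, with 4 negative, beside -0.53 over the 42 of snoRNA biotype, with 28 negative. Without PBS replicate 2 the medians were -0.11 and -0.27, and the difference between the biotypes was not tested.

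Grouped by end boxes instead of symbol, the 26 tested genes with the ACA end had a median log2 fold of -0.67, with 20 negative. The 10 with C and D boxes had 0.09, with 4 negative, and the 12 with neither had 0.31, with 5 negative. Without PBS replicate 2 these medians were -0.38, 0.03 and 0.09, and without PBS replicate 3 they were -0.83, -0.02 and 0.05. The median of those with neither box was also -0.07 without EU replicate 1, over 11 genes, 0.86 with limma voom and 0.69 with the replicate block. All these box medians are over genes that passed the filter on low counts. Without that filter the median over all classes was 0.28, over 344 genes, and medians by box over those genes were not taken. Unadjusted p under 0.05 with lower values in EU was reached by 9 of the ACA-ended genes and 2 with C and D boxes, beside 4.05% of all tested genes, and these counts are a description only. In the 8 ACA-ended genes with a mean CPM of at least 1, the median deviation from the mean of the 6 libraries (log2) was -0.46, -0.21 and -0.22 in EU and 0.22, 0.57 and 0.08 in PBS. In the 8 such genes with C and D boxes it was 0.10, -0.11 and 0.21 in EU and 0.09, 0.13 and -0.29 in PBS. The first set has all EU libraries below all PBS libraries and the second does not, and the difference between them was not tested. A gene can reach a mean of 1 CPM through PBS alone, as Gm22422 did (mean 0.868 CPM in EU, 2.37 in PBS). The order of the libraries in these sets is therefore a description only. The genes with neither box, besides those given above, were Gm24616 (log2 fold 0.79), Gm24119 (0.51), Gm25604 (0.11), Gm24336 (-0.31), Gm25129 (-0.40) and Gm25857 (-0.84), each with overlapping groups. The genes with no sequence were Scarna13 and 2 without a symbol: ENSMUSG00000119011 inside Sec24a, at 7.22 CPM in EU and 9.79 in PBS (log2 fold -0.44), and ENSMUSG00000119577 inside Gsr (-0.77).

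**Figure D4:**
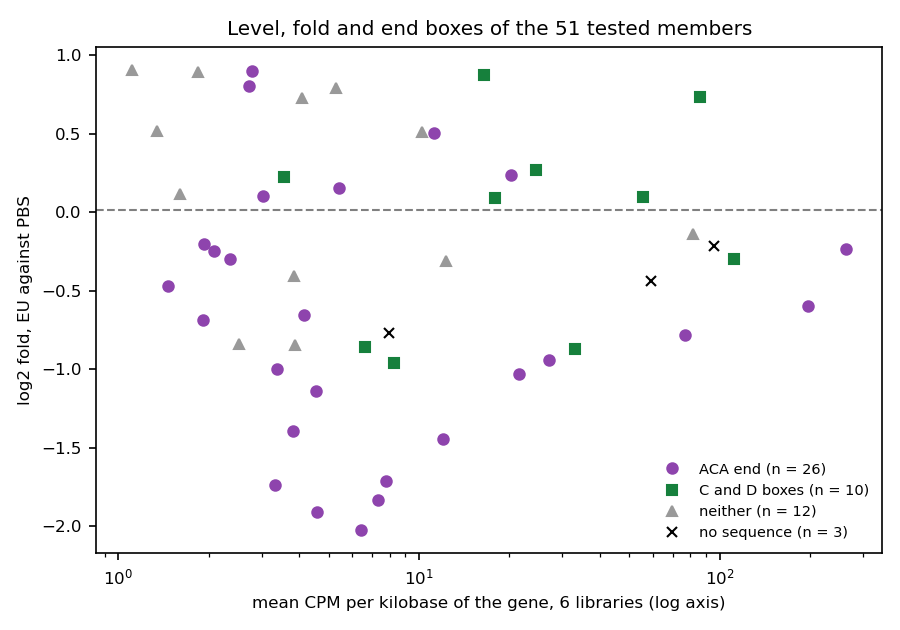
Mean CPM per kilobase of gene over the 6 libraries (log axis) against the log2 fold of EU against PBS for the 51 tested genes, marked by end boxes. Of 26 genes with the ACA end 20 lie below 0, of 10 with C and D boxes 4 do, and the dashed line is the median of all tested genes.

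Most tested genes lie inside a host. An enclosing protein-coding or lncRNA gene on the same strand was found for 43 of the 51, and all of these hosts were tested. The median log2 fold of the 40 hosts was -0.01, and their folds ran from -1.12 to 0.36. The fold of the small RNA was larger in size than that of the host in 42 of 43 cases and had its sign in 22. Standard errors were smaller for most hosts than for the small RNAs, as for Rpl5 (0.0638) and Gm22270 inside it (1.17). Rcc1 (0.226) and Snora73b (0.165) were an exception. A wider error alone can give a larger fold, so the sizes do not show a change apart from the host. Across the 43 pairs Pearson's r of the folds was 0.23 and Spearman's rho 0.11, a description over genes that share libraries and in some cases a host. Because the hosts lie on the same strand, reads of host introns on these rows cannot be told apart from those of the small RNA. The strand setting of the counting, which is not given, bears only on genes of the other strand. The 8 tested genes without a host had a median of -0.03, beside -0.31 for the 43 with one.

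**Figure D5:**
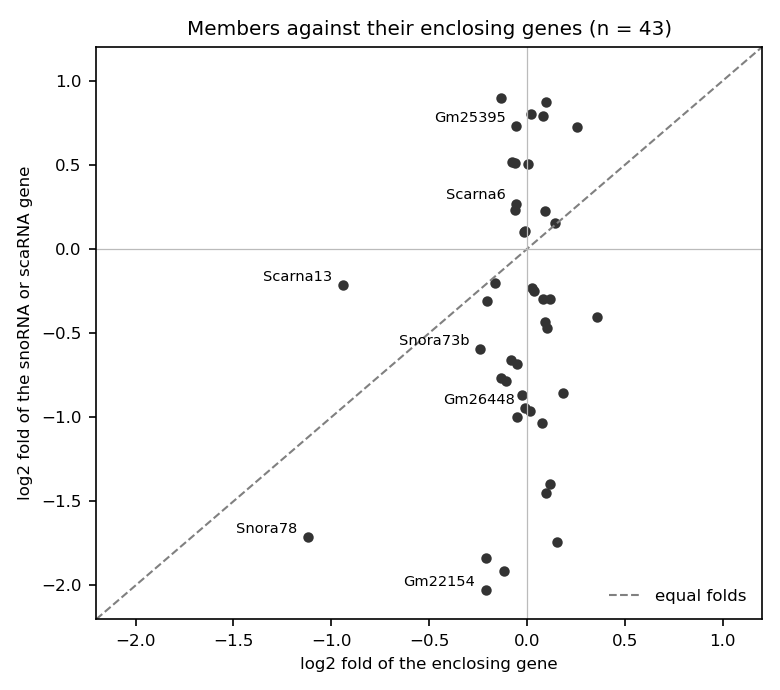
log2 fold (EU against PBS) of 43 tested snoRNA and scaRNA genes against that of the gene enclosing each on the same strand; the dashed line marks equal folds. Most hosts lie near 0 while the small RNAs spread from -2.03 to 0.90. Standard errors are not drawn and were smaller for most hosts than for the small RNAs.

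The remaining 1507 genes were not tested, and 1214 had no count. The 10 with most counts were Gm23734, Gm23200, Snord13, Gm22516, Gm22786, Snord72, Gm22362, Gm23639, Gm24401 and Gm23297, with 71 to 44 summed counts. In 5 of them, Gm23734, Gm23200, Gm22516, Snord72 and Gm24401, PBS replicate 2 held most of the counts. Gm23200 had 1, 4 and 6 counts in EU and 0, 55 and 0 in PBS, Gm22516 had 1, 0 and 6 in EU and 0, 52 and 0 in PBS, and Snord72 had 4, 1 and 2 in EU and 0, 47 and 3 in PBS. Snord13, the U13 RNA, which acts in maturation of 18S ribosomal RNA, had 3, 6 and 1 counts in EU and 31, 10 and 11 in PBS. The 5 rows named U3, the snoRNA needed for the first cleavages of the ribosomal precursor, had 0 counts. They have the same length and lie on 1 chromosome, and how reads that fit several copies were counted is not given.

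The brain-enriched C/D clusters of the Prader-Willi region were close to the floor. SNORD115, known for pairing with the serotonin 2C receptor transcript, had 131 rows, of which 37 were detected, with 23, 35 and 40 counts in EU and 27, 3 and 40 in PBS. SNORD116 had 68 rows, of which 8 were detected, with 6, 3 and 7 counts in EU and 0, 2 and 17 in PBS. The groups overlapped in both. The 1 SNORD113 row, of the Meg3 region, had 0 counts.

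Genes for the proteins that bind, assemble and trim these RNAs had 0 calls, as did the host transcripts (0.0% over all tested genes). The C/D core protein genes had a median log2 fold of 0.09 over 4, with Nop56 at 34.6 CPM in EU and 32.2 in PBS (log2 fold 0.10) and Snu13 at 0.10. The H/ACA core genes had 0.06 over 4, with Nop10 at -0.25 and Nhp2 at 0.12. Assembly factors had 0.09 over the 11 found of 12, with the chaperone gene Pih1d1 at 0.27 and the ATPase gene Ruvbl2 at 0.17. Cajal body genes had -0.10 over 5, with Gemin2 at -0.52 and Smn1 at -0.12, and 3′ end processing genes -0.08 over 9, with the deadenylase gene Parn at -0.15 and the helicase gene Mtrex at -0.13. Of 21 snoRNA host transcripts tested of 22 listed, 13 had positive folds with a median of 0.12. Snhg14 had 106.8, 102.8 and 123.7 CPM in EU and 95.5, 96.7 and 87.6 in PBS (log2 fold 0.25, SE 0.0802, edgeR adjusted p = 0.441), and Rian a log2 fold of 0.18 (SE 0.0632). In both the EU libraries all lay above the PBS libraries, an order held by 8.52% of all tested genes, and some other host transcripts had it too. Of the 21, 4 had an unadjusted edgeR p under 0.05 with higher values in EU and 0 with lower ones. The shares over all tested genes were 3.84% and 4.05%, and these counts are a description only.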

How the data were processed

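RNA of 6 pulldown libraries from mouse hippocampus was analysed (3 EU, 3 PBS, grouped by title). The authors deposited raw read counts per gene, not normalized. The tools were STAR 2.7.10b, featureCounts 2.0.1 and bcl2fastq 2.20.0, with build GRCm39, per the submitters' processing notes. Not given in the sources used here are the annotation release, the strand setting, the counted feature and how reads with several matches were handled. The table's 92 spike-in rows (0 counts) were left out, and 0 columns belonged to other samples. Totals were 39886723 to 58301239 counts per library, and a CPM under about 1 rests on few reads; counts without molecular identifiers are not independent molecules.

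All genes were fitted with edgeR 4.0.16 (R 4.3.3; filterByExpr, TMM, quasi-likelihood test, two-sided, treatment as the only term, Benjamini-Hochberg over 18511 genes at 0.05). The standard error of a log2 fold is its size over the root of its F value, and CPM uses TMM-scaled totals. The alternatives were limma voom 3.58.1, DESeq2 1.42.0, other scalings, the low-count filter dropped or tightened (1 CPM in 3 libraries, summed counts of 60), a replicate block, and each library left out in turn. Hosts are the enclosing protein-coding or lncRNA gene with the highest mean CPM. Identities come from global alignment in Biopython 1.88, over the longer sequence. Figures used matplotlib 3.10.9.

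The genes, lists and tests were chosen with earlier results of these data known. The rule for names took every tested snoRNA and scaRNA gene, the 10 untested ones with most counts, the Snord113 to Snord116 families and the 2 smallest p of each protein or host list.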

Additional observations from a re-analysis of the deposited data

How the results depend on the processing

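The 0 calls among snoRNA and scaRNA genes held under RLE, library-total and upper-quartile scaling, the stricter filter, limma voom, the replicate block and each left-out library. DESeq2 and edgeR without a filter each called 4, the latter among 344 such genes tested. Over all genes the count was 248 without the filter, 288 with DESeq2, 12 with limma voom and 18 with the replicate block, and 0 to 20 with a library left out (1 without EU replicate 1, 20 without PBS replicate 2). Among the protein and host lists, 2 genes passed without the filter, Snhg11 (0.37) and Meg3 (0.29). The numbers were not taken as pairs because they are not said to pair animals. Same-numbered libraries deviated together with correlations of 0.06, 0.02 and 0.10, and each library correlated best with its own number. These small values do not settle whether the libraries are paired. The ratio of genes detected, EU over PBS, was 1.40 at 1 count and 0.800 at 10 counts. With a library left out it ran from 1.15 to 1.64. The EU over PBS ratio of count shares ran from 0.811 to 0.908 for all classes together and from 0.606 to 0.784 for H/ACA.

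Of the 51 tested genes, 38 kept their direction in every setting that fitted them, among them the 12 with an unadjusted p under 0.05; the cause of the turns was not tested. With limma voom Gm22748 turned to 0.14 and Gm24233 to 0.45, the latter also under the replicate block (0.11). With a library left out, the log2 fold ran from -1.31 to 0.0869 for Gm24564, -1.47 to 0.67 for Snora30, -0.0258 to 0.23 for Gm22009, -0.00498 to 0.70 for Gm25776, -0.90 to 0.17 for Gm25129, -0.92 to 0.12 for Gm22270, -0.69 to 0.25 for Gm22748, -0.0807 to 0.44 for Gm25107, -0.0566 to 0.18 for Snord104, -0.72 to 0.40 for Gm24233, -0.34 to 1.36 for Snord55, -0.33 to 1.30 for Gm22767 and -0.44 to 1.96 for Gm25604. With a library left out, the H/ACA median ran from -0.98 to 0.0203 (the latter without PBS replicate 2). It was -0.30 with limma voom and -0.34 with the replicate block. Under the stricter filter it was -0.05, the midpoint of Snora73b (-0.60) and Snora23 (0.51), the only H/ACA genes kept. The median of genes without a class was -0.16 without PBS replicate 2 and -0.64 without PBS replicate 3, and that of C/D genes -0.48 without PBS replicate 3. Read with the case as written, the prefixes gave 37 H/ACA, 77 C/D, 7 Scarna and 1437 other genes. The 29 tested genes with a mean under 1 CPM had wide errors, and the part of depth in this was not tested.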

Other observations

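Near copies were common among the tested genes. Of the 48 with a sequence, 16 had another snoRNA or scaRNA gene of at least 90% identity among those within 80% of their length, and 0 of the 48 shared a whole sequence with another. Only the 1099 genes with a sequence were searched, so copies among the rest were not looked for. The counts of a tested gene and its closest copy were often far apart. Gm22442 held 10693 counts over the 6 libraries and its closest copy Gm23386, at 94.4% identity, 2. Snora30 held 117 and Gm25133 held 5 (98.5%). Counts were nearer to each other for Gm22154 and Gm25788, with 233 and 263, Gm24233 and Gm22786, with 65 and 57 (97.5%), and Gm22270 and Gm26387, with 52 and 29 (94.7%). Gm25788 had 263 and its closest copy Gm24620 had 35 (97.7%). How reads that fit both copies of a pair were counted is not given.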
